A study of Mus musculus with 14 samples.

Results

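The type 2 cytokine locus of the mouse holds the cytokine genes Il4, Il13 and Il5 on chromosome 11, with Rad50 between Il13 and Il5 and Kif3a next to Il4. These 5 genes were taken by symbol from the count and TPM tables of both experiments, 5 of 53278 genes in each table, and all 5 had enough counts to be tested in both. RNA was sequenced from group 2 innate lymphoid cells (ILC2s) sorted from whole lung as live, lineage-negative, CD90.2+ and CD3- cells, about 15000 per well. In the stimulation experiment, 8 female B6 mice gave 4 unstimulated libraries and 4 libraries from cells kept for 24 h with IL-33, an alarmin released by damaged tissue, at 20 ng/mL. The design text gives the unstimulated cells the same 24 h of culture, but it also calls them ex vivo, and their own labels give no time, so that culture and IL-33 cannot be told apart if they were not cultured. In the Blimp-1 experiment, 3 female ControlIL7RaCre mice (Control) and 3 female Blimp-1IL7RaCre mice (Blimp-1-deficient) of matched age gave 1 library each, and all 6 cultures received IL-33 and IL-25 at 20 ng/mL each for 72 h. The methods of the study add IL-2 to that culture. Blimp-1 is encoded by Prdm1, and the Cre is driven by the IL7Ra gene, which is active in lymphocytes at large and not in ILC2s alone.

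ILC2s resemble T helper 2 cells without an antigen receptor and answer alarmins by secreting type 2 cytokines. IL-5 recruits and sustains eosinophils, IL-13 drives mucus and airway narrowing, and IL-4, which shares a receptor chain with IL-13, directs type 2 helper T cells and class switching of B cells. The genes of the cluster share control elements, among them a locus control region that lies in introns of Rad50. Rad50 itself encodes the ATPase of the MRE11-RAD50-NBS1 complex of DNA break repair, and Kif3a a motor subunit of kinesin-2, which carries cargo along microtubules and in cilia. The comparisons address how far the genes of the locus change together after IL-33, and how far they depend on Blimp-1 in activated ILC2s.

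In the GENCODE M21 annotation of GRCm38, the genes lie on chromosome 11 in the order Kif3a, Il4, Il13, Rad50, Il5. Kif3a (ENSMUSG00000018395.19) is on the plus strand at chr11:53567379-53601967. Il4 (ENSMUSG00000000869.12) follows on the minus strand at chr11:53602982-53618669. Il13 (ENSMUSG00000020383.1) is on the minus strand at chr11:53631324-53634702. Rad50 (ENSMUSG00000020380.16) fills chr11:53649519-53707319 on the minus strand. Il5 (ENSMUSG00000036117.2) is on the plus strand at chr11:53720794-53725106, its start site 13.5 kb from that of Rad50. The start sites of Il4 and Il13 are 16.0 kb apart and those of Il13 and Il5 86.1 kb apart. All 5 spans together cover 157.7 kb. The exon lengths in the deposited tables, from 1205 bases for Il13 to 5375 for Rad50, equal those of GENCODE M21. No stretch of 75 bases, the read length, in a transcript of Il4, Il5, Il13 or Rad50 occurs in a transcript of another gene, and 0.386% of those in Kif3a do. The antisense gene Gm12214 overlaps 27.1% of the exon bases of Il5, and as no source used here says whether reads were counted by strand, reads of the pair cannot be told apart. Gm12214 itself had no count in any library.

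The 250 bases before the start site are shown for the cytokine genes and, as the contrast of a gene that is not a cytokine, for Kif3a. They come from RefSeq on GRCm38.p6, each in the direction of its gene, 5′ to 3′. Capitals mark matches on either strand to AGATA, the core bound by GATA factors such as GATA3 with an adenine before it, which reads TATCT where it lies on the other strand. They also mark matches to GGAAA, the core of NFAT sites, read as TTTCC on the other strand. The Il4 window is chr11:53618666-53618915 on the minus strand, the Il13 window chr11:53634703-53634952 on the minus strand, the Il5 window chr11:53720544-53720793 on the plus strand and the Kif3a window chr11:53567119-53567368 on the plus strand.

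Il4: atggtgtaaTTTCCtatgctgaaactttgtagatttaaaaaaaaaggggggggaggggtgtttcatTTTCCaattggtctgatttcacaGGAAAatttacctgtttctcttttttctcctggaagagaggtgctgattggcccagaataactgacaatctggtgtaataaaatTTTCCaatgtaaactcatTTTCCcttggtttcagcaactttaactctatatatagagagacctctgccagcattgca

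Il13: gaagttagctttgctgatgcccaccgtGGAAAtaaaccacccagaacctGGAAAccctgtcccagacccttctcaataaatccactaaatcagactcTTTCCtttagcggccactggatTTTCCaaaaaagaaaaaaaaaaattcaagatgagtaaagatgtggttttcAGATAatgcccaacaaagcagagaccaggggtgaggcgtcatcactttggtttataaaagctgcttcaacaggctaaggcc

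Il5: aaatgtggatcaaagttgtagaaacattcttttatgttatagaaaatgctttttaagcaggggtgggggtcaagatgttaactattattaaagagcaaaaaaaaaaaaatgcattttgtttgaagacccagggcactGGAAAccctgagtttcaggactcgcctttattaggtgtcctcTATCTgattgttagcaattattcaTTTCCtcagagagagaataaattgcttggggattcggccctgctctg

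Kif3a: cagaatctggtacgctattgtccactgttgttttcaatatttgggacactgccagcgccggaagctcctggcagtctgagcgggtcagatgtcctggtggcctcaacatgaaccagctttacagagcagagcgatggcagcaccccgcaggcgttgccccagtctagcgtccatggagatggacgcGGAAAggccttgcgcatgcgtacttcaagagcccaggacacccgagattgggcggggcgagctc

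The Il4 window held 5 matches to GGAAA, beginning 241, 184, 161, 77 and 59 bases before the start, and the Il13 window 4, at 223, 201, 153 and 131 bases. Il5 held 2, at 113 and 47 bases, and Kif3a 1, at 64 bases. Of 32536 different RefSeq windows of the same length, 55.7% held at least 1 match to GGAAA and 1.59% held 4 or more. AGATA occurred once before Il13, 81 bases from the start, and once before Il5, 71 bases from the start, and it occurred in 26.5% of all windows. Matches to TATAA, the core of the TATA box, lay 30 and 29 bases before the start of Il13, on opposite strands and overlapping each other, and 1 lay 214 bases before the start of Il5, and 22.7% of all windows held such a match. RefSeq lists a start for Il4 inside the gene as well, with the window chr11:53617339-53617588, which held no match to any of these motifs. The AP-1 motif TGANTCA, where N is any base, was searched on both strands and found in none of the 5 windows, and it occurred in 6.73% of all windows. The windows before Il4 and Il5 held 37.6% G and C, that of Il13 43.2% and that of Kif3a 58.8%, against a median of 52.4%.

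Libraries held 10470125 to 32849428 counts in the stimulation experiment and 13570188 to 76448945 in the Blimp-1 experiment. Levels between libraries are given as CPM, counts scaled to 1000000 per library after TMM normalization, and levels between genes as the authors' TPM, which divides by gene length. Of the stimulated libraries, replicate 3 had the lowest depth, and the small nuclear RNA Rn7sk took 122131 of its 1000000 TPM. In Control replicate 2, 7 loci (CT010467.1, Gm23935, Gm26917, Lars2, Mir6236, Gm15564 and mt-Rnr2) took 76.8% of counts and 93.9% of TPM, against at most 0.941% and 3.69% in the other 5 libraries of that experiment. Tests of the 5 genes and counts over gene lists are therefore given with and without these libraries. Prdm1 was at 75.2, 92.8 and 74.0 CPM in Controls 1 to 3. With Blimp-1 deleted it was at 14.6, 11.5 and 11.4 CPM, so that the groups did not overlap. All 15 ILC2 marker genes examined exceeded 3 counts in some library of every group, led by Il1rl1, which encodes the IL-33 receptor, at a mean of 2441 CPM in unstimulated cells. They summed to 8997 to 9784 CPM in unstimulated and 6078 to 8418 CPM in stimulated libraries. After IL-33, 11 fell and 2 rose, where 16.1% and 16.2% of all genes did. Without stimulated library 3 the same markers fell and rose, against 29.7% and 27.5% of all genes. In Control libraries they summed to 6565 to 8054 CPM and in Blimp-1-deficient libraries to 5891 to 6257 CPM. There 0 of 14 tested passed by edgeR, where 0.756% of all genes did. Without Control 2, 4 rose and 5 fell, where 8.25% and 5.72% of all genes did. The 13 T cell markers, among them genes of CD3, against which the cells were sorted, summed to between 231 and 268 CPM in unstimulated and 66.6 to 99.0 CPM in stimulated libraries. In unstimulated libraries Trbc2 led them with a mean of 117 CPM, followed by the CD3 gene Cd3g at 35.7 CPM. Trbc1 and Lck were at 25.5 and 25.3 CPM, and Cd3e, Trac and Cd3d at 6.83, 4.71 and 2.79 CPM. ILC2s can transcribe some of these genes themselves. The 14 epithelial or stromal markers summed to 493 to 798 CPM in unstimulated and 280 to 504 CPM in stimulated libraries. Of 9 tested, 4 fell, among them Epcam by 4.50 on the log2 scale, and Pecam1 rose, against 16.1% and 16.2% of all genes. Without stimulated library 3, Col1a1 (-1.90, edgeR, adjusted p = 6.60e-05) and Vwf (-1.34, adjusted p = 0.0202) fell too, where 29.7% of all genes fell. The part of such cells in the results was not tested.

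Before stimulation, Il5 was the most abundant gene of the locus, at 1224 ± 286 TPM (SD, n = 4). Il13 followed at 411 ± 194, Rad50 at 110 ± 7.72, Kif3a at 20.9 ± 1.83 and Il4 at 9.59 ± 1.07 TPM. The ranges of neighbours in this order did not overlap. After IL-33, Il13 was at 33715 ± 9316 TPM and Il5 at 30716 ± 5188 TPM (SD, n = 4), with overlapping ranges. Rad50 stayed in the same place of the order at 111 ± 23.6 TPM, and Il13 and Il5 exceeded it by 232-fold or more in every library. Kif3a at 27.3 ± 8.92 TPM and Il4 at 24.4 ± 3.22 TPM overlapped. Il13 had the highest TPM of all genes in stimulated libraries 1, 2 and 4 and ranked 5 in library 3, from ranks between 187 and 611 without stimulation.

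The order at the top was the same after 72 h in the Blimp-1 experiment. Il13 was at 22336, 340 and 23943 TPM in Controls 1 to 3 and at 18197 ± 2307 TPM (SD, n = 3) in Blimp-1-deficient libraries. Il5 was at 18449, 227 and 18753 TPM in Controls 1 to 3 and at 15370.5 ± 2511 TPM in Blimp-1-deficient libraries. The low value of Control 2 was shared by all 5 genes, Rad50 being at 1.51 TPM there against 99.7 and 117 TPM in the other Controls. At the bottom of the order Il4 lay above Kif3a here, at 43.9 ± 1.90 against 24.6 ± 1.34 TPM in Blimp-1-deficient libraries and at 39.5 and 46.0 against 26.3 and 28.6 TPM in Controls 1 and 3. In Control 2, Il4 was at 1.08 and Kif3a at 0.375 TPM. The experiments form separate tables with other stimuli and times, so no test was made between them.

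**Figure D1:**
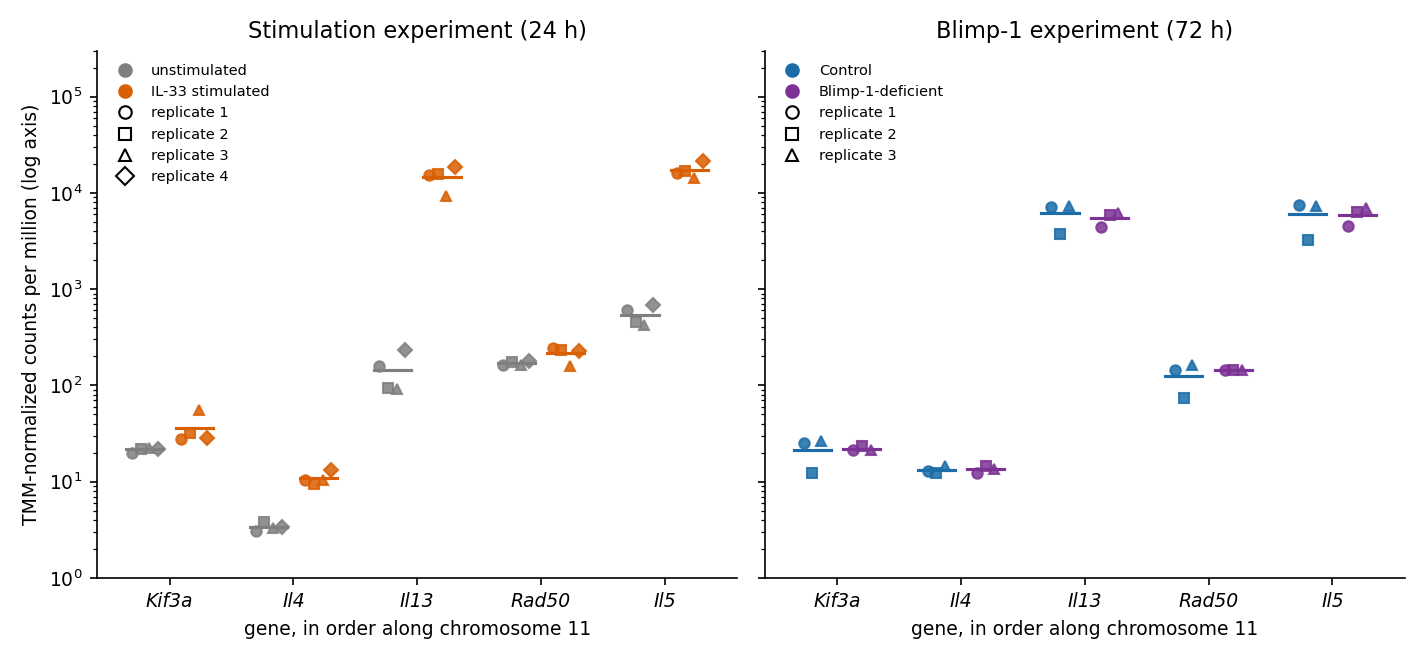
TMM-normalized CPM (log axis) of the 5 genes in every library, in their order along chromosome 11, with the stimulation experiment on the left and the Blimp-1 experiment on the right. Symbols mark replicates and bars the group means. Il13 lies at 9279 CPM or more in the 4 stimulated libraries and at 230.4 CPM or less in the unstimulated ones, and Control replicate 2 is the lowest library of its experiment for all 5 genes, for Il4 by a small margin.

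Il13, the driver of mucus and airway hyperreactivity, rose most among the 5 genes after IL-33. It was at 157, 93.7, 90.8 and 230.4 CPM in unstimulated libraries 1 to 4 and at 15204, 15610, 9279 and 18699 CPM in stimulated libraries 1 to 4. The groups were far apart, although unstimulated library 4 was 2.54 times unstimulated library 3. The rise was 6.68 ± 0.45 on the log2 scale (± SE), or 103-fold with a 95% interval of 50.2 to 210.3 (edgeR's quasi-likelihood test, adjusted p = 3.80e-05). Without stimulated library 3, the lowest of its group, the rise was 6.85 on the log2 scale (adjusted p = 1.97e-07). These are bulk libraries, in which a larger share of producing cells and more RNA per cell cannot be told apart.

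Il5, the eosinophil growth factor, was at 609, 454, 424 and 689.6 CPM in unstimulated and at 16289, 16819, 14219 and 21258 CPM in stimulated libraries 1 to 4. The lowest stimulated library was above every unstimulated one. The rise was 31.5-fold with a 95% interval of 21.1 to 47.0, or 4.98 ± 0.25 on the log2 scale (edgeR, adjusted p = 1.12e-05), and 5.06 without library 3 (adjusted p = 3.66e-08). Together the 3 cytokines took 0.0555 to 0.0972% of all counts in unstimulated libraries and 2.28 to 3.66% in stimulated ones.

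Il4 rose as well, from the lowest level in the locus. It had 77 to 133 counts in unstimulated libraries, or 3.09, 3.81, 3.27 and 3.40 CPM. In stimulated libraries 1 to 4 it was at 10.5, 9.39, 10.4 and 13.2 CPM, again without overlap, and library 3 was within the range of the others. The rise was 3.21-fold with a 95% interval of 2.43 to 4.24 (edgeR, adjusted p = 0.000271) and 3.25-fold without library 3 (adjusted p = 7.82e-06). Mast cells and basophils are other sources of IL-4. Of 13 markers of these cells, 8 were at 3 counts or fewer in every stimulated library, among them Fcer1a, Ms4a2, Cpa3 and Prss34. The number was 8 in unstimulated libraries too, where it included Tpsb2 and Cma1, which exceeded 3 counts in a stimulated library at means of 0.344 and 0.0442 CPM. Cpa3 was at 10.4 ± 2.86 CPM in unstimulated libraries, above Il4 at a mean of 3.39 CPM, and fell by 8.26 on the log2 scale. Mcpt8 and Fcer1a exceeded 3 counts in an unstimulated library too, at means of 0.660 and 0.0695 CPM. The list summed to 307 to 374 CPM in unstimulated and to 132 to 186 CPM in stimulated libraries. Most of it was Kit, which ILC2s can express. Of 3 markers of this list with enough counts to be tested, none rose and 2, Cpa3 and Kit, fell, where 16.2% of all genes rose and 16.1% fell. Without library 3 Gata2 fell too, where 27.5% of all genes rose and 29.7% fell. The part of such cells in the Il4 values was not tested. T cells are a further source. None of the 13 T cell markers rose with all libraries or without library 3, and 8 and 9 of them fell, where 16.1% and 29.7% of all genes fell.

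The genes that are not cytokines moved little. Rad50 was at 165, 174, 163 and 179 CPM in unstimulated and at 245, 230.5, 160.0 and 227 CPM in stimulated libraries 1 to 4. Stimulated libraries 1, 2 and 4 were above all unstimulated ones, and library 3 was below all of them. The difference was 0.34 ± 0.13 on the log2 scale (edgeR, adjusted p = 0.0756), and without library 3 Rad50 was higher by 0.46 ± 0.05 (adjusted p = 5.19e-05). On the TPM scale the difference was -0.01 over all libraries, where the median of all genes was at -0.25 against 0.06 after TMM scaling. Relative to that median, Rad50 was higher by 0.28 in CPM and by 0.24 in TPM.

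Kif3a was at 19.8, 22.0, 22.6 and 22.0 CPM in unstimulated and at 27.9, 32.0, 55.4 and 28.2 CPM in stimulated libraries 1 to 4, so that library 3 stood above the rest of its group. Kif3a rose by 0.73 ± 0.23 on the log2 scale (edgeR, adjusted p = 0.0397), or 1.66-fold, and by 0.44 ± 0.08, or 1.36-fold, without library 3 (adjusted p = 0.000884). The call held in 6 of 16 alternatives. It was lost on library size alone (adjusted p = 0.101), with no filter on low counts (0.0506), with the replicate number as a block (0.0547) and with limma on TPM (0.256 and 0.265), as well as without any one of the unstimulated libraries and without stimulated library 2 (adjusted p from 0.0620 to 0.108).

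Counted over the locus, 4 of 5 genes rose after IL-33 and the remaining one, Rad50, did not pass, where of 15466 genes tested 16.2% rose, 16.1% fell and 32.3% changed in either direction (2508 higher and 2484 lower, against 1805 and 3691 on library size alone). Without library 3, all 5 rose, and of 15733 genes 27.5% rose, 29.7% fell and 57.2% changed. In CPM the groups did not overlap for 4 of 5 genes, all but Rad50, as for 17% of all genes in that direction and 37.9% in either. The median of the 5 log2 differences was 1.68, that of all genes tested 0.06.

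**Figure D2:**
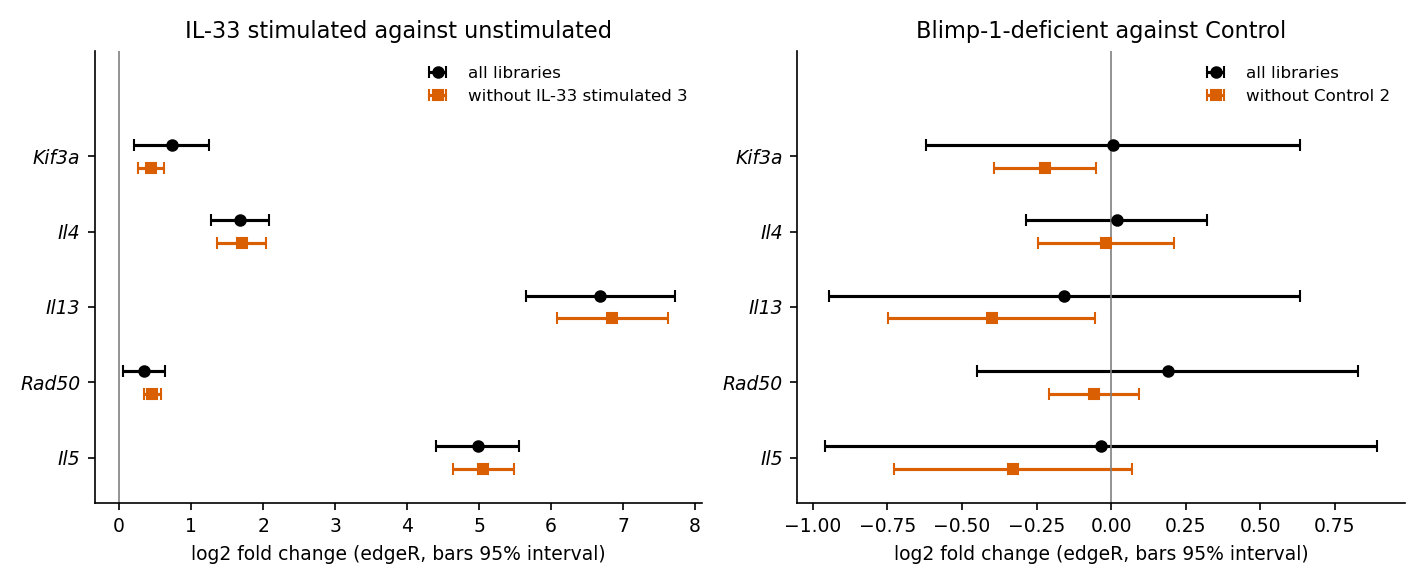
Log2 fold changes of the 5 genes (edgeR) with 95% intervals, for IL-33 stimulated against unstimulated on the left and Blimp-1-deficient against Control on the right; the axes differ. Black circles use all libraries, and orange squares leave out stimulated replicate 3 or Control replicate 2. Il13 and Il5 stand at 6.68 and 4.98 on the left, and on the right every interval with all libraries spans 0.

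The locus is also described by the ratios of its genes within a library, which, apart from the 0.1 TPM added to both genes for log2 values and geometric means, do not depend on the scaling between libraries. Il5 exceeded Il13 in every unstimulated library, with TPM ratios of 3.04, 3.80, 3.66 and 2.35 in libraries 1 to 4. In stimulated libraries 1 to 4 the ratios were 0.840, 0.845, 1.20 and 0.891, so that Il13 exceeded Il5 in all but library 3. The geometric mean of the ratio was 3.38-fold lower after IL-33, falling from 3.15 to 0.934, and the groups did not overlap. In the Blimp-1 experiment Il13 exceeded Il5 in all 6 libraries, with Il5 to Il13 ratios of 0.826, 0.670 and 0.783 in the Controls and 0.809, 0.841 and 0.875 in the Blimp-1-deficient libraries. Control 2 had the lowest of these ratios.

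Il4 fell behind both other cytokines after IL-33. There were 25.1 to 68.9 TPM of Il13 for each TPM of Il4 in unstimulated libraries and 905 to 1692 in stimulated ones, a shift of the geometric mean by 33.9-fold. The same count for Il5 was 95.2 to 162 in unstimulated and 1087 to 1429 in stimulated libraries, a shift of 10.02-fold. After 72 h the ratio of Il13 to Il4 lay between 316 and 566, with Control 2 lowest. All of these values fell between those of unstimulated and of stimulated cells in the other experiment, with which no test was made.

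Set against Rad50, which is transcribed across the control elements between Il13 and Il5, every cytokine rose. The Il13 to Rad50 ratio was 4.26, 2.40, 2.48 and 5.73 in unstimulated libraries 1 to 4 and 276, 302, 259 and 367 in stimulated ones. Library 3 was not set apart on this scale. The geometric means differed by 85.9-fold for Il13, 25.4-fold for Il5 and 2.54-fold for Il4. The exact test left intervals of 45.1 to 152-fold, 17.3 to 36.1-fold and 1.85 to 3.45-fold for these differences, at 97.1% confidence. For each of the 6 ratios the exact two-sided permutation test over 4 against 4 libraries gave p = 0.0286 (0.0286 also after Benjamini-Hochberg adjustment over the 6), the smallest p that this design allows. Without library 3 the smallest possible p is 0.0571, and each ratio kept its direction and its separation.

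**Figure D3:**
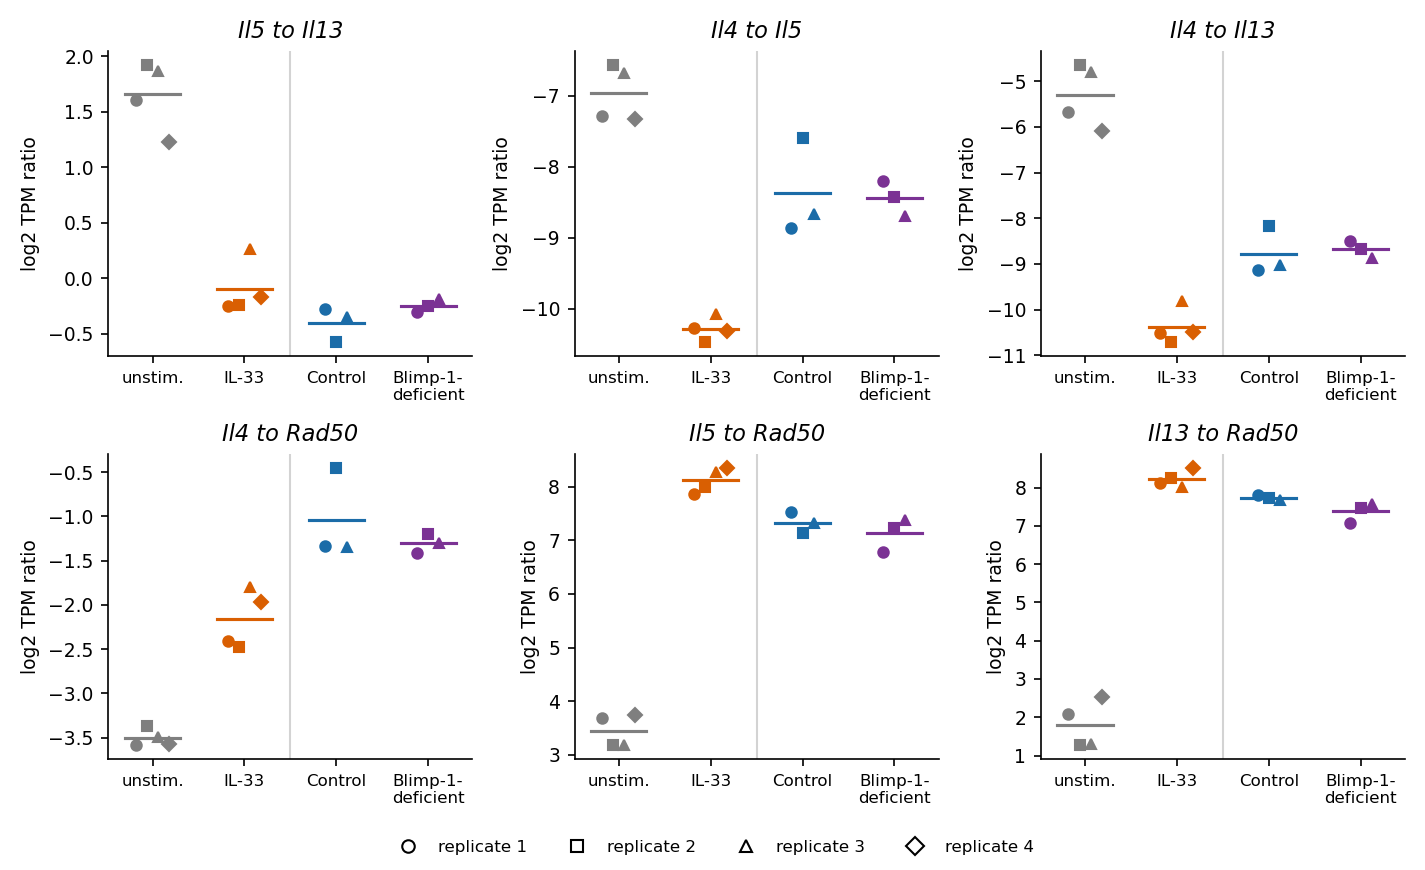
Log2 ratios of TPM within each library for 6 pairs of genes of the locus, with unstimulated and IL-33 stimulated libraries left of the grey line and Control and Blimp-1-deficient libraries right of it. Symbols mark replicates and bars the group means; each panel has its own axis. The ratio of Il5 to Il13 is above 0 in all unstimulated libraries and below 0 in all libraries of the Blimp-1 experiment.

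None of the 5 genes passed the test between Blimp-1-deficient and Control ILC2s, where 0.756% of 17335 genes tested did, 0.45% as higher and 0.306% as lower. By edgeR 0 of the 5 had an unadjusted p below 0.05, and DESeq2 and limma called 0 of them too. Il13 was at 7176, 3775 and 7382 CPM in Controls 1 to 3 and at 4400.4, 5839 and 6213 CPM in Blimp-1-deficient libraries 1 to 3. Control 2 lay below all other libraries and Controls 1 and 3 above all of them. The difference was -0.16 on the log2 scale with a 95% interval of -0.95 to 0.63 (edgeR, adjusted p = 0.912). Without Control 2, Il13 differed by -0.40 with an interval of -0.75 to -0.05 (unadjusted p = 0.0295, adjusted p = 0.116), or 0.758-fold.

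Il5 behaved alike, with 7560.5, 3225 and 7375 CPM in the Controls. The Blimp-1-deficient libraries had 4542, 6267 and 6936 CPM, between Control 2 and the others. The difference was -0.03 on the log2 scale with an interval of -0.96 to 0.89 over all libraries (edgeR, adjusted p = 0.994) and -0.33 with an interval of -0.73 to 0.07 without Control 2 (adjusted p = 0.233). A change of Il5 by up to 1.86-fold upward or to 0.514-fold thus lies within the error of all 6 libraries. The 14 epithelial or stromal markers summed to 220.1, 4044 and 344 CPM in Controls 1 to 3, against 509 to 738 CPM in Blimp-1-deficient libraries, which thus lay below Control 2 and above the other Controls. The 13 T cell markers summed to 67.3 to 80.1 CPM in Controls and 90.8 to 94.5 CPM in Blimp-1-deficient libraries, and the ILC2 markers were lower there, without overlap (5891 to 6257 against 6565 to 8054 CPM). The part of such cells in these values was not tested.

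Il4 was the steadiest of the cytokines between the groups. It was at 12.9, 12.2 and 14.5 CPM in the Controls, where Control 2 rests on 50 counts, and at 12.3, 14.5 and 13.4 CPM in Blimp-1-deficient libraries. The groups overlapped throughout, with a difference of 0.02 on the log2 scale and an interval of -0.29 to 0.32 (edgeR, adjusted p = 0.986), and of -0.02 with an interval of -0.25 to 0.21 without Control 2 (adjusted p = 0.922).

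Rad50 was at 143, 74.8 and 161 CPM in Controls 1 to 3 and at 144, 146 and 145 CPM in the libraries without Blimp-1, which differed from each other by 1.01 times at most. The difference was 0.19 on the log2 scale with an interval of -0.45 to 0.83 (edgeR, adjusted p = 0.845) and -0.06 with an interval of -0.21 to 0.09 without Control 2. Kif3a was at 25.2, 12.4 and 26.2 CPM in Controls 1 to 3 and at 21.1, 23.5 and 21.2 CPM in the other group. Its difference was 0.01 with all libraries (adjusted p = 0.998) and -0.22 with an interval of -0.39 to -0.05 without Control 2 (unadjusted p = 0.0179, adjusted p = 0.0864). Without Control 2, 0 of 5 genes passed by edgeR, where 14% of 17968 genes did, 8.25% as higher and 5.72% as lower, and Il13 and Kif3a had an unadjusted p below 0.05. In CPM the groups overlapped for all 5 genes with all libraries, while 22.6% of genes did not overlap. Without Control 2 the Blimp-1-deficient libraries were below both Controls for Il13, Il5 and Kif3a, as for 26.7% of genes, and 51.1% of genes did not overlap in either direction.

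The Il13 to Rad50 ratio of Control 2 was close to those of the other Controls. Il13 exceeded Rad50 by 224, 225.2 and 204 times in Controls 1 to 3 and by 136, 178 and 191 times in Blimp-1-deficient libraries 1 to 3. All 3 Blimp-1-deficient values were below all 3 Control values, with geometric means of 166 and 213, a difference of 1.28-fold or -0.35 on the log2 scale. With 1 TPM added in place of 0.1, where Rad50 in Control 2 is itself at 1.51 TPM, the log2 difference was -0.15. The exact two-sided permutation test gave p = 0.1, the smallest that 3 against 3 allows, and 0.6 after adjustment over 6 ratios. The Il5 to Rad50 ratio was 185, 151 and 159.8 in the Controls and 110.0, 150.1 and 167 in Blimp-1-deficient libraries, with overlap (exact p = 0.5). The Il4 to Rad50 ratio was 0.396, 0.713 and 0.392 against 0.374, 0.436 and 0.404, where Control 2 stood apart (exact p = 0.7). The 3 ratios among the cytokines overlapped between the groups as well, with exact p of 0.2 for Il5 to Il13, 0.8 for Il4 to Il13 and 0.9 for Il4 to Il5, each 0.6 or more after adjustment.

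Other genes nearby rose as well. Among the genes with start sites within 1000 kb of that of Il13, 24 were tested in the stimulation experiment, of which 11 rose and 2 fell. Without the members, 7 of 19 rose and 2 fell, against 16.2% and 16.1% of all genes, with a median log2 difference of 0.50 (the same with Il3 at its lower bound). Without library 3, 8 of the 19 rose and 2 fell, against 27.5% and 29.7%. Csf2, which encodes GM-CSF and lies 615 kb from Il13, rose from 34.0 ± 2.33 to 2003 ± 422 CPM, by 5.88 ± 0.18 on the log2 scale (edgeR, adjusted p = 1.97e-06). Its neighbour Il3, a growth factor of mast cells and basophils, had no count in the 4 unstimulated libraries. After IL-33 it was at 1.84 to 3.72 CPM, with a mean of 2.47 CPM. That mean was 24.0-fold the level of 3 counts per unstimulated library, 0.103 CPM on average, which is the lower bound used here. P4ha2, which encodes a collagen prolyl hydroxylase, rose by 2.94 ± 0.15, Uqcrq, a subunit of respiratory complex III, by 0.71 ± 0.20, and the low genes Gm12223, 4933405E24Rik and Slc22a21 rose too. The calls of Uqcrq and Slc22a21 were the least stable of these, held in 7 of 16 and 4 of 15 alternatives. Gm12223 is annotated antisense beside Csf2, where reads cannot be told apart without strand. The elongation factor gene Aff4 fell by 1.04 ± 0.13 and Rapgef6 by 0.60 ± 0.13.

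The nearest neighbours on either side of the locus did not pass. Irf1, the closest tested gene beyond Il5, had a log2 difference of 0.50 ± 0.40 (adjusted p = 0.359), and Slc22a5 one of 0.04 ± 0.21. On the other side of Kif3a, Sept8 had a difference of 0.06 ± 0.07. The remaining genes tested in this experiment, Hspa4, Zcchc10, Gm17334, Gm12216, Pdlim4, Acsl6 and Fnip1, did not pass either, and Acsl6 had a difference of 3.40 ± 1.13 that fell to 0.98 without library 3 and then passed (adjusted p = 0.0113). In the Blimp-1 experiment 0 of 30 genes in the window passed with all libraries by edgeR, where 0.756% of all genes did. Without Control 2, 8 rose and 4 fell, where 8.25% and 5.72% of all genes did, among them Csf2 with 1.21 ± 0.14 (adjusted p = 0.00286) and Aff4, while no gene between Kif3a and Il5 passed. Leap2, Gdf9, Shroom1, Slc22a4, Gm11189 and Gm12221 were tested in this experiment only.

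**Figure D4:**
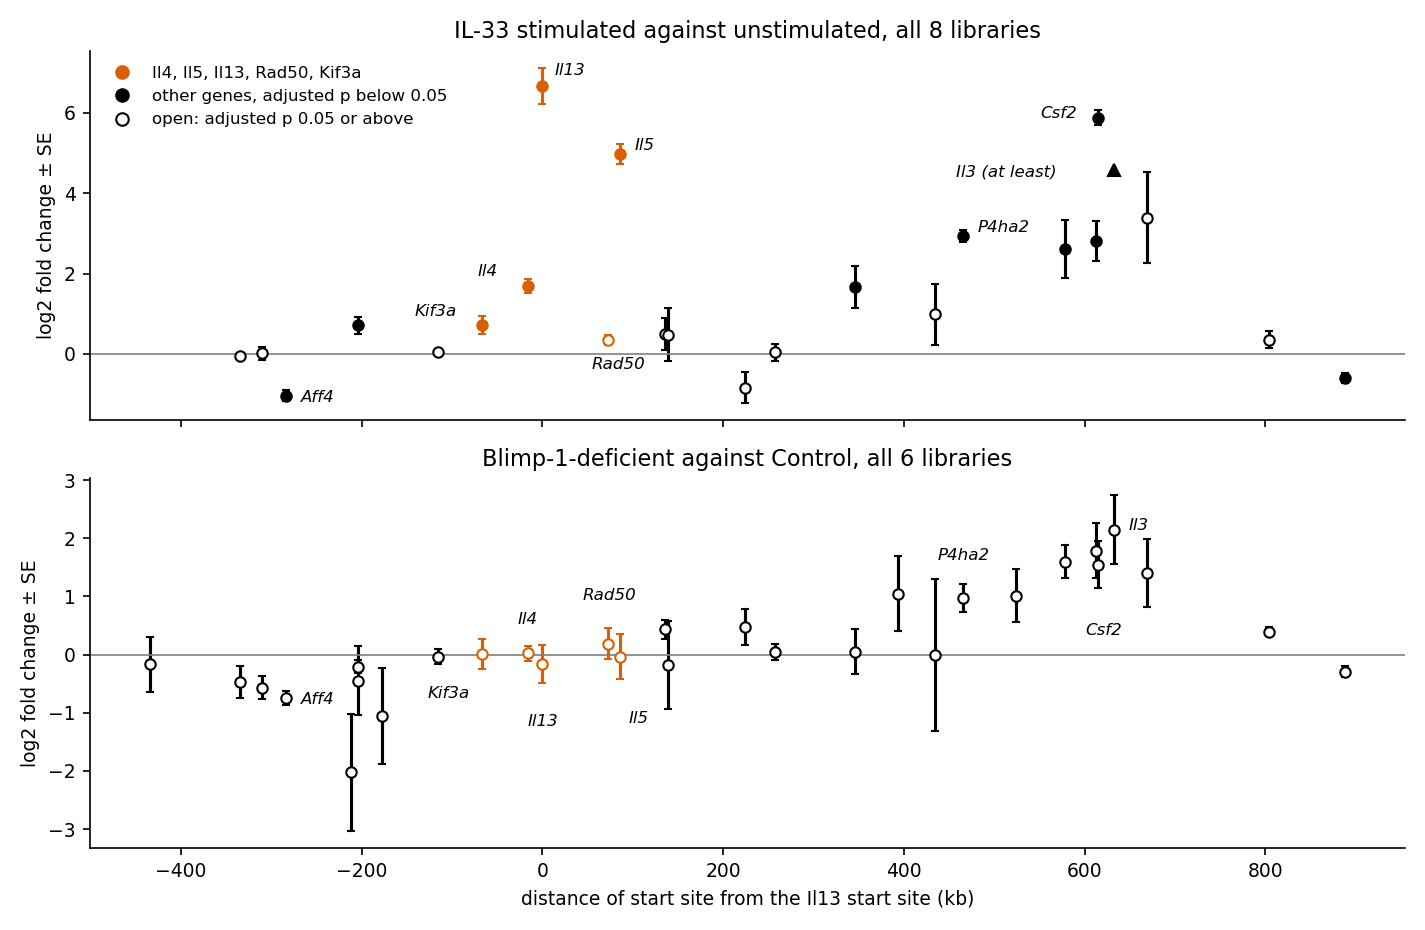
Log2 fold changes (edgeR, ± SE) of all tested genes with start sites within 1000 kb of the Il13 start site, against the distance in kb from it, after IL-33 above and with Blimp-1 deficiency below, each over all libraries; the vertical axes differ. Orange marks the 5 genes of the locus, filled symbols an adjusted p below 0.05, and the triangle the lower bound for Il3. Il13 and Il5 stand highest near the start site of Il13, and Csf2 and Il3 at 615 and 633 kb from it.

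Of 34 regulators known to act on the cytokine genes or on ILC2s, 8 rose and 12 fell after IL-33, where 16.2% of all genes rose and 16.1% fell. Without library 3 the counts were 12 and 13, where 27.5% and 29.7% of all genes did. The largest rises were those of Zeb2, a zinc finger repressor (3.49 ± 0.23 on the log2 scale), Irf4, a partner of BATF and AP-1 factors (2.42 ± 0.27), Satb1, a chromatin organizer (2.08 ± 0.07), and the AP-1 gene Junb (1.95 ± 0.20). The largest falls were those of Zfpm1, which encodes the GATA cofactor FOG1 (-1.39 ± 0.14), Tcf7 (-1.32 ± 0.19) and the NFAT genes Nfatc2 (-1.27 ± 0.14) and Nfatc1 (-0.89 ± 0.10). Gata3, the master regulator of type 2 cytokine genes, named here after its values were seen, fell by 0.69 ± 0.12 (edgeR, adjusted p = 0.00273) from 1016 ± 23.8 to 632 ± 94.1 CPM while the cytokines rose. The median of the list was -0.07, against 0.06 for all genes. In the Blimp-1 experiment Prdm1 was the single regulator that passed with all libraries (-2.68 ± 0.15, edgeR, adjusted p = 0.00441), a call that held in 7 of 14 alternatives and was lost without any one Blimp-1-deficient library (adjusted p of up to 0.0656). Without Control 2 it fell by 2.57 ± 0.11, and 10 further regulators passed, where 14% of all genes did. Rora, Stat5b, Junb, Satb1, Tcf7 and Runx1 then rose, by 0.23 for Junb to 1.88 for Tcf7, and Gfi1, Nfatc2, Ikzf1 and Zfpm1 fell, by 0.29 for Nfatc2 to 0.46 for Gfi1. Runx1 changed sign between these fits, from -0.05 to 0.39.

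A list of type 2 cytokine receptors and signalling genes held 13 tested genes, not all of which serve these cytokines alone or directly. Of the 13, 4 rose after IL-33 and none fell. Without library 3, 9 rose and none fell, where 16.2% and 27.5% of all genes rose with all libraries and without library 3. Csf2rb2, listed as a close copy of Csf2rb and not as a chain of the IL-5 receptor, rose by 2.37 ± 0.25. The decoy receptor gene Il13ra2 rose by 1.78 ± 0.55 from 0.357 ± 0.198 CPM. The kinase gene Jak2 rose by 1.54 ± 0.10 and the common gamma chain gene Il2rg by 0.40 ± 0.09. The call of Il13ra2 held in 7 of 15 alternatives. In Blimp-1-deficient libraries 2 of 13 fell, Csf2rb, the shared signalling chain of the IL-5 receptor (-1.65 ± 0.22 on the log2 scale, edgeR, adjusted p = 0.0404), and its close copy Csf2rb2 (-1.49 ± 0.21, adjusted p = 0.0463), where 0.306% of all genes fell. Both calls held in 5 of 14 alternatives and were lost with the replicate block (adjusted p = 0.121), on library size alone, with limma on TPM and without any one library other than Control 2. The IL-5 receptor gene Il5ra, also on the list, had too few counts to be tested in either experiment. Its mean was 0 CPM in unstimulated and Control libraries, 0.0339 CPM in stimulated and 0.0465 CPM in Blimp-1-deficient ones. Without Control 2, 8 of 13 passed in both directions, where 8.25% of all genes rose and 5.72% fell. Csf2rb, Csf2rb2 and the IL-4 receptor gene Il4ra (-0.54 ± 0.07, adjusted p = 0.00378) then fell, and Il13ra1, Il2rg, Stat6, Jak2 and Socs1 rose, with Il13ra1 moving from -0.35 to 0.82. Counts of these near-identical paralogs are uncertain, as reads may be split between them.

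The partners of the genes that are not cytokines did not share one direction. Of 14 genes that work with Rad50 in DNA break repair, 1 rose after IL-33, Trp53bp1 (0.27 ± 0.08), and 4 fell, Chek2 (-0.995 ± 0.227), Brca1 (-0.66 ± 0.13), Lig4 (-0.64 ± 0.20) and Nbn (-0.34 ± 0.07), which encodes the third subunit of the complex, where 16.2% and 16.1% of all genes rose and fell. The calls of Trp53bp1 and Lig4 held in 5 and 8 of 16 alternatives. Without library 3, Rint1, Xrcc5 and Xrcc6 rose too and Prkdc fell, which made 4 and 5 of 14, against 27.5% and 29.7% of all genes. Of 18 tested genes of kinesin-2 and intraflagellar transport, 2 rose, Ift57 (1.30 ± 0.27) and Wdr35 (0.61 ± 0.15), and 3 fell, Ift140 (-0.77 ± 0.08), Ift80 (-0.55 ± 0.12) and Ift52 (-0.31 ± 0.08), close to the same shares of all genes. Without library 3, 3 rose, Kif3b being the third, and 9 fell, against 27.5% and 29.7% of all genes. Kif3c (0.73 to -0.30), Kifap3 (0.44 to -0.28) and Bbs1 (0.43 to -0.69) changed sign and were among those that fell. The median log2 differences were -0.18 for the first list and 0.16 for the second with all libraries, and -0.08 and -0.27 without library 3 (0.06 and -0.05 over all genes), so that the sign of the second depends on this library. Between Blimp-1-deficient and Control libraries 0 of 14 and 0 of 18 passed by edgeR with all libraries, where 0.756% of all genes did. Without Control 2, where 14% did, 3 rose in the first list, Nbn (1.05 ± 0.07), Mdc1 and Atm, and 2 rose and 1 fell in the second.

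The genes whose levels followed each member most closely were sought among 10810 genes with a mean of at least 5 CPM, by the root mean square difference of centred log2 CPM over the 8 libraries of the stimulation experiment. Nearest to Il13 were Peg10 at 0.37, the chemokine gene Cxcl2 at 0.47 and Csf2 at 0.58. Nearest to Il5 were the lipid receptor gene Gpr55 at 0.25, the checkpoint receptor gene Tigit at 0.29 and the inflammasome gene Nlrp3 at 0.34. Il4 lay nearest to Hacd3, Car8 and Kpna4, each at 0.15. Rad50 lay within 0.04 of Ubox5, Ssbp1 and Txlna, and Kif3a within 0.10 of Stard8, Rabgap1l and Fam117b. No member was the nearest gene of another, Il5 and Il13 being 0.91 apart and Rad50 and Kif3a 0.49. These distances were not tested, and the 8 libraries fall into 2 groups that set most of each distance.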

How the data were processed

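RNA from sorted lung ILC2s was amplified with SMART-seq v4 and sequenced as paired reads. According to the methods, adaptors were removed by cutadapt, HISAT2 placed the reads on GRCm38 and Subread gave the count for each gene; the tool list of the labels names Bowtie2. The strand setting is not given in the sources used here. For each experiment the authors deposited raw counts per gene without normalization, TPM that sum to 1000000 per library, and the gene length in bases behind the TPM. All columns of libraries were used.

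Counts were tested with edgeR 4.0.16 in R 4.3.3 (TMM, filterByExpr, glmQLFit without robust estimation), two-sided, with Benjamini-Hochberg adjustment over all genes tested and a threshold of 0.05. SE and 95% intervals of log2 fold changes come from that fit. Ratios used TPM + 0.1 for the log2 values and the exact permutation test of SciPy 1.17.1. A fold against libraries without counts is a bound, the mean of the other group against 3 counts per library. DESeq2 1.42.0, RLE size factors, library size alone, no filter, a mean count of at least 50, limma 3.58.1 with a pseudocount of 1 or 0.1 on log2 TPM (mean TPM 1 or more), a block for the replicate number and the omission of single libraries were alternatives. The test was tried on simulated data.

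The members and lists were chosen with earlier results of these data known. Genes named are the 5 members, Prdm1, tested neighbours within 1000 kb, the 3 genes nearest to each member, and up to 4 list genes per direction with the largest changes past the threshold. Marker genes, Gata3 and list genes that passed only without a doubted library were named after their values were seen. Lists were described by counts and medians without a set test. By their labels, replicates came from separate mice. Figure captions of the study describe sorting samples from pooled animals, which may apply to these libraries too. Intervals of ratios are the shifts that the exact test of 4 against 4 does not reject; 3 against 3 allows none at 95%. Depth was 10470125 to 32849428 and 13570188 to 76448945 counts per library, where 3 counts equal 0.0859 to 0.296 and 0.0310 to 0.731 CPM.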

Additional observations from a re-analysis of the deposited data

Results flagged for a closer look

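Kif3a in stimulated replicate 3 was at 55.4 CPM, farther from the other 3 stimulated libraries (27.9 to 32.0 CPM) than a sample of 4 is allowed by Dixon's 95% limit, with a gap of 0.851 of the group's range. The log2 ratio of Il5 to Il13 in the same library was 0.26, against -0.25 to -0.17 in the other stimulated libraries, with a gap of 0.834 of the range. Chance alone sets apart about 1 in 20 groups, and 22 groups of 4 libraries were examined. Rn7sk and depth also set this library apart, and their part in these values was not tested.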

How the results depend on the processing

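After IL-33, Il4, Il5 and Il13 passed in the same direction under all 16 alternatives, with log2 differences of 1.26 to 1.80, 4.66 to 5.15 and 6.41 to 7.04. Rad50 passed with DESeq2 (0.36), RLE size factors (0.36) and a mean count of at least 50 (0.34), and was at -0.0061 and -0.0064 with limma at a pseudocount of 1 and 0.1, which move the median of all genes to -0.25 and -0.29. Kif3a missed the threshold with library size alone (0.58), no filter (0.68) and limma on log2(TPM + 1) and log2(TPM + 0.1) (0.33 and 0.34). Leaving out 1 library gave 0.28 to 0.46 for Rad50, past the threshold without stimulated replicate 3 or without unstimulated replicate 1, 2 or 4, and 0.44 to 0.83 for Kif3a, past the threshold without stimulated replicate 1, 3 or 4. Genes higher and lower over the whole table numbered 2508 and 2484, 990 and 4555 or 975 and 4373 with limma, and 1852 to 4328 and 1820 to 4666 with 1 library left out, the most without stimulated replicate 3. Library size alone gave 1805 and 3691.

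For Blimp-1 deficiency no alternative called a member (14 alternatives, adjusted p from 0.0864 upward), and signs were not stable. Il5 and Il13 were at 0.24 and 0.15 with library size alone, which moves the median of all genes to 0.45, and at 1.83 and 1.67, then 1.83 and 1.68, with limma, whose medians were 1.28 and 1.69. With 1 library left out, values ranged from -0.03 to 0.10 for Il4, -0.33 to 0.17 for Il5, -0.40 to 0.0048 for Il13, -0.06 to 0.41 for Rad50 and -0.22 to 0.17 for Kif3a. Sign changes occurred without Control 2 (Il4 -0.018, Rad50 -0.057, Kif3a -0.22), without Control 1 (Il5 0.17), without Control 3 (Il5 0.14, Il13 0.0048), without Blimp-1-deficient 1 (Il5 0.13) and without Blimp-1-deficient 2 (Il4 -0.033, Kif3a -0.031). Genes higher and lower over the whole table numbered 78 and 53, 582 and 472 with DESeq2, 149 and 107 with a mean count of at least 50, 0 and 0 or 1 and 0 with limma (115 and 120 at an unadjusted p below 0.05), and 0 to 1483 and 0 to 1027 with 1 library left out, the most without Control 2. With limma at a pseudocount of 1 and 0.1, Csf2rb was at 0.051 and 0.087 and Csf2rb2 at 0.17 and 0.27, both below those medians, and after IL-33 Trp53bp1 was at -0.059 and -0.062. The cause was not tested.

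Not every pair of same-numbered libraries deviated together (correlations of -0.12, 0.21, 0.31 and 0.17 after IL-33 and -0.13, -0.16 and 0.14 in the Blimp-1 experiment), and not every library correlated best with its own number. These are deviations from the means of small groups, so they cannot decide whether same-numbered libraries were paired. The main tests treated the libraries as unpaired. With the replicate number as a block, Kif3a was at 0.67 after IL-33 (adjusted p = 0.0547), Il5 at 0.041 in the Blimp-1 experiment, and 0 genes passed in each direction there, with 1380 at an unadjusted p below 0.05 against 2071 without it. After IL-33 all 6 ratios kept their direction, and stayed within 1 SD of the more variable of both groups, under other pseudocounts, CPM and with each library left out. In the Blimp-1 experiment a pseudocount of 1 moved the log2 differences of Il13 to Rad50 from -0.35 to -0.15, of Il5 to Rad50 from -0.20 to 0.0069 and of Il4 to Il13 from 0.094 to -0.17, and the 3 ratios with Il4 changed sign in some fits with 1 library left out. Control 2, with 50 counts of Il4 and 51 of Kif3a, limits the Blimp-1 comparison.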
